A study of Rattus norvegicus with 30 samples.

Results

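The step from postnatal day 7 to postnatal day 10 was examined in rat lungs labelled as 85% oxygen, in the 3 day 10 libraries against the 3 day 7 libraries, which are 6 of the 30 mRNA-seq libraries of the series. The series models bronchopulmonary dysplasia, a lasting lung disease of infants born early and given oxygen, in neonatal rats kept in 85% oxygen from the first day of life or in room air (21% oxygen), with dams swapped between the arms daily. Each arm has 3 libraries on each of 5 days, all from trachea-free lung pieces of about 40 mg, and the 6 lung libraries labelled 21% on days 7 and 10 are the only other groups used below. The labels name no strain, no genetic change and no other treatment. The labels state 12 rats per arm for 15 libraries per arm, and none says that the 3 libraries of a group are separate animals. The p-values therefore describe how these libraries vary, and part of that variation may be technical.

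Days 7 and 10 fall in alveolarisation, when the sacs of the newborn rat lung are divided by new septa. Septa grow as fibroblasts and myofibroblasts lay down elastin and collagen, capillaries extend with them, and type 2 epithelial cells make surfactant and give rise to the flat type 1 cells. High oxygen is known to slow this growth, to stop cell division in the lung and to induce p53 targets and antioxidant genes.

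The 6 libraries held 15255583 to 16584358 counts each, and mitochondrially encoded genes took 2.65% to 4.23% of them. Lung markers were high in each library per gene length, with 5079 to 11040 FPKM of the surfactant protein gene Sftpc and 167 to 227 FPKM of the endothelial cadherin gene Cdh5, while the brown fat gene Ucp1 was listed at 0. Transcripts of the Y-linked genes Eif2s3y and Kdm5d summed to 120 to 127 CPM (counts relative to the library total) in 4 libraries but to 0 in day 7 library 2 and 0.775 CPM in day 10 library 2, so each day has 1 library without them. The labels were checked with the cell-cycle inhibitor gene Cdkn1a, a p53 target induced by oxygen in rodent lung. On day 10 it stood at 52.0, 54.2 and 41.8 CPM in the 85%-labelled libraries and at 248, 266 and 324 CPM in the 21%-labelled ones, which goes against the oxygen labels, so the groups are named by their labels only.

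Day 10 library 1 stands apart from the other 5. The 27 skeletal muscle markers in the table were each highest there, 22 of them at 10 times the next library or more, and their summed level was 2880 CPM against 64.2 to 100 CPM in the others. The skeletal actin gene Acta1 was at 891 CPM and the perinatal myosin gene Myh8 at 365 CPM. The creatine kinase gene Ckm followed at 223 CPM, the giant sarcomere protein gene Neb at 185 CPM and the myosin light chain gene Mylpf at 185 CPM. Of 23 squamous epithelium markers, 20 were highest in the same library, and their summed level was 382 CPM against 46.3 to 72.6 CPM. The keratin gene Krt13 was at 94.8 CPM there and at no more than 0.121 CPM elsewhere, and Krt4, Krt15, Pkp1 and Dsc2 were at 76.8, 54.1, 23.3 and 21.1 CPM. Cardiac markers summed to 421 CPM in this library and to 68.0 to 157 CPM in the others. Without it, the median log2 fold change of the tested skeletal muscle markers was -0.22 in place of 4.60. Ciliated cell markers, which could come with airway pieces, summed to 406 to 627 CPM in the 6 libraries, highest in day 7 library 2.

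**Figure D1:**
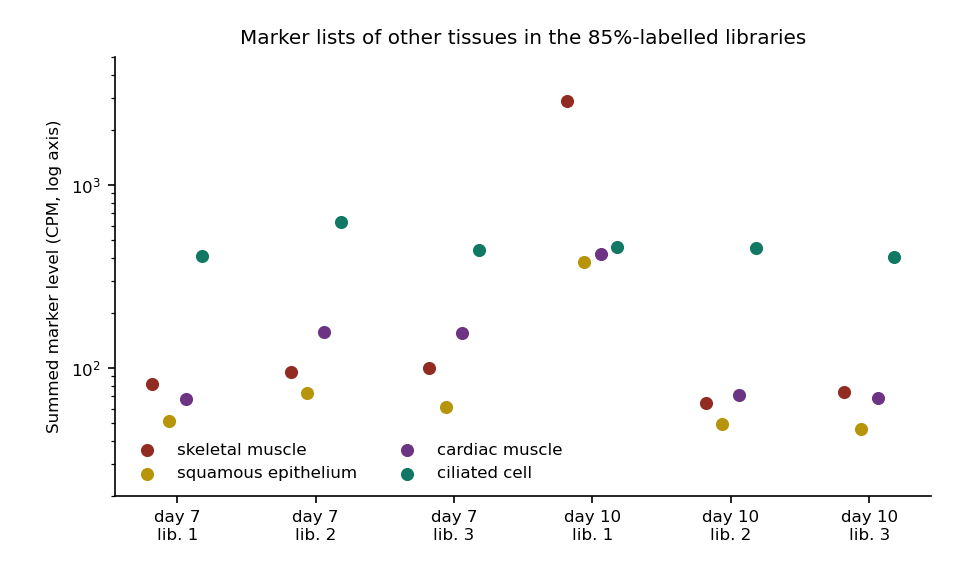
Summed levels of 4 marker lists (CPM, log axis) in each of the 6 libraries labelled 85%, 1 point per list and library. Day 10 library 1 sits far above the rest for skeletal muscle (2880 CPM) and squamous epithelium (382 CPM), while the ciliated cell sum stays between 406 and 627 CPM.

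Few genes passed the test of the step itself. Of 17571 genes, 2 (0.0114%) were called by edgeR's quasi-likelihood test at a Benjamini-Hochberg adjusted p under 0.05 with a log2 fold change of 0.5 or more in size. The median absolute log2 fold change over the genes tested was 0.183, and 51.2% of the genes had a positive one. At an unadjusted p under 0.05, 1356 genes passed, 728 higher (4.14%) and 628 lower (3.57%) on day 10. The libraries of the days did not overlap in 1029 genes that were higher (5.86%) and 975 that were lower (5.55%). With DESeq2 the same libraries gave 95 calls, 55 of them higher. With the correlation between level and gene length of each library as a covariate, a setting added after the data were seen, edgeR gave 66. That correlation ran from 0.279 in day 7 library 2 to 0.389 in day 10 library 1.

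Both called genes lie on chromosome 4 of the deposited annotation. Txnrd3, a thioredoxin reductase gene at 121612332 to 121650571, fell. It was at 40.7, 37.9 and 32.1 CPM on day 7 and at 19.6, 22.2 and 21.1 CPM on day 10, with no overlap, a log2 fold change of -0.81 ± 0.13 (SE, n = 3 per day) and an adjusted p of 0.0171 by edgeR. Over the 5 days of its arm its mean was 28.7 CPM on day 1, 31.9 on day 3, 36.9 on day 7, 21.0 on day 10 and 29.2 on day 14, so day 10 was the lowest. In the 21%-labelled arm its step was -0.13. Without day 10 library 1 its edgeR call was lost, at a log2 fold change of -0.77.

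M6pr, which encodes the small receptor that carries mannose 6-phosphate enzymes to lysosomes, lies at 155088317 to 155092827 and rose. It was at 0.545, 0.571 and 0.841 CPM on day 7 and at 10.4, 10.8 and 10.8 CPM on day 10, a log2 fold change of 4.01 ± 0.58 (SE, n = 3 per day) with an adjusted p of 0.00718 by edgeR. The other 27 libraries of the series held 0 to 5.2 CPM, so the 3 day 10 libraries stood above all others. By day 14 the mean of the arm was 1.26 CPM. M6pr is named here after its values were seen, because its level lies under the minimum for named genes. The sources used here do not give how reads shared with close copies were counted. Without day 7 library 1 or without day 7 library 2, neither gene was called.

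The genes next in order are given as values, since none passed after adjustment. Lyve1, the hyaluronan receptor gene of lymphatic and some capillary endothelium and of perivascular macrophages, was at 153, 131 and 164 CPM on day 7 and at 268, 253 and 276 CPM on day 10 (log2 fold change 0.83 ± 0.15, edgeR adjusted p 0.0679, n = 3 per day). Its lowest day 10 library lay well above its highest day 7 library. Susd2, a gene of a sushi-domain membrane protein, was at 12.1, 8.12 and 8.59 CPM and then at 23.8, 37.7 and 33.2 CPM (1.72 ± 0.33, adjusted p 0.0679). Sh3bp5, which encodes a guanine exchange factor for Rab11, was at 72.7 to 77.6 CPM and then at 105 to 116 CPM (0.56 ± 0.11). Lgals3bp, a secreted galectin-binding glycoprotein gene, was at 75.7 to 78.7 CPM and then at 111 to 131 CPM (0.68 ± 0.14). Slco3a1, an organic anion transporter gene, was at 50.8 to 52.7 CPM and then at 82.4 to 106 CPM (0.87 ± 0.18). The last pair were also called higher in the 21%-labelled arm, at 0.66 and 0.71.

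On the lower side, Cx3cl1, the membrane-bound chemokine fractalkine, was at 30.5, 32.9 and 23.7 CPM on day 7 and at 13.7, 11.7 and 16.8 CPM on day 10 (-1.04 ± 0.20, edgeR adjusted p 0.0679, n = 3 per day). Rab15, a GTPase gene of endosomal recycling, was at 108, 85.4 and 66.8 CPM and then at 42.8, 57.9 and 49.1 CPM (-0.79 ± 0.15). The day 7 libraries of Rab15 spread over a wider range than the gap between the days. Lgi3, a secreted leucine-rich protein gene, was at 216, 226 and 230 CPM and then at 134, 137 and 152 CPM (-0.67 ± 0.13). Fgf10, the mesenchymal growth factor that maintains distal epithelium, was at 34.4, 34.1 and 36.3 CPM and then at 21.4, 15.4 and 20.2 CPM (-0.88 ± 0.18, adjusted p 0.0940). All 9 of these genes had non-overlapping days, and DESeq2 called each of them, with adjusted p-values from 0.000508 to 0.0052. The 9 were picked by their small edgeR p in the same libraries, so neither is separate support.

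**Figure D2:**
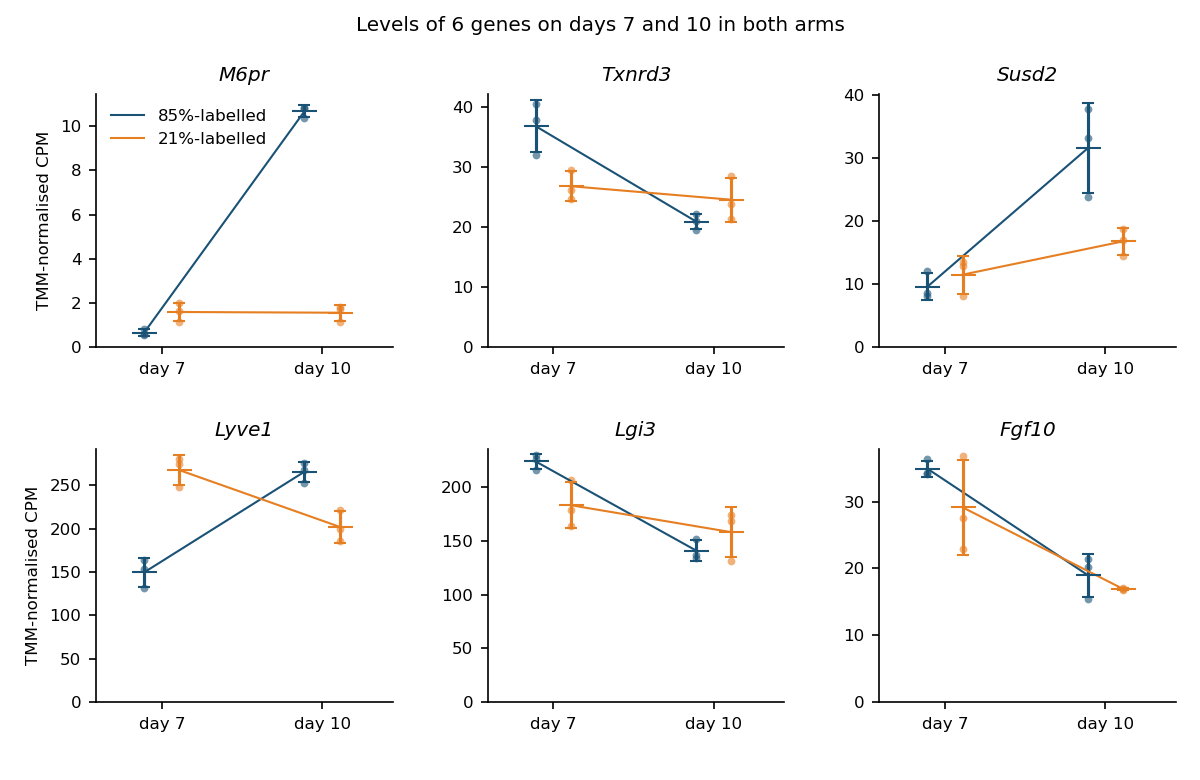
TMM-normalised CPM of 6 genes on days 7 and 10, with 1 point per library and the mean ± SD of 3 libraries, in the 85%-labelled and 21%-labelled arms. M6pr goes from under 1 to above 10 CPM in the 85%-labelled arm alone, and Fgf10 stands at 19 CPM on day 10 in that arm beside 16.9 CPM in the other.

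Cell division genes had positive log2 fold changes throughout, though edgeR called none. The list holds kinases, motors and spindle proteins of mitosis. Its 39 symbols in the table stand for 40 entries, because Spag5 has 2, and all 40 were tested. The log2 fold change was positive in 40 of 40, against 51.2% of the genes tested. DESeq2 called 1, Cenpe. Of the 40, 22 passed an unadjusted p under 0.05 in the higher direction, as did 4.14% of the genes tested, and 0 in the lower. In 26 the day 10 libraries lay wholly above those of day 7, as in 5.86% of the genes tested. The median log2 fold change was 0.51, against 0.01 over the genes tested.

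Cenpe, the motor that ties chromosomes to spindle microtubules, had the smallest p of the list. It was at 34.8, 26.1 and 42.9 CPM on day 7 and at 67.4, 64.5 and 53.2 CPM on day 10, a log2 fold change of 0.83 ± 0.21 (SE, n = 3 per day) with an edgeR adjusted p of 0.152 and a DESeq2 adjusted p of 0.0233. The mitotic kinase gene Plk1 was at 35.3, 36.5 and 42.5 CPM and then at 60.3, 78.1 and 62.1 CPM (0.81 ± 0.26). The checkpoint kinase gene Ttk was at 18.6, 13.7 and 24.9 CPM and then at 33.6, 35 and 30.9 CPM (0.80 ± 0.25). In all 3 genes the days did not overlap, and day 7 library 3 was the highest of its day.

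The spindle factor gene Tpx2 was at 56.7 to 72.7 CPM and then at 91.7 to 109 CPM (0.63 ± 0.20), and the midzone protein gene Prc1 at 80.6 to 105 CPM and then at 123 to 159 CPM (0.61 ± 0.20). Mki67, the proliferation antigen of cycling cells, was at 129, 119 and 187 CPM on day 7 and at 220, 236 and 193 CPM on day 10 (0.58 ± 0.21, edgeR adjusted p 0.402). Its mean in the arm was 177 CPM on day 1, 172 on day 3, 145 on day 7, 216 on day 10 and 79.8 on day 14. Day 10 thus had the highest mean of the 5 days for Mki67, but its libraries, at 193 to 236 CPM, overlapped those of day 1, at 152 to 199 CPM. In bulk tissue, more cells of a kind and more RNA per cell cannot be told apart.

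In the 21%-labelled arm the list's median step was -0.05. For the difference between the arms' steps, 12 of the 40 passed an unadjusted p under 0.05 in the higher direction (7.17% of the genes tested), and edgeR called none while DESeq2 called Cenpe. For Cenpe the difference was 1.12 ± 0.29. DNA replication genes, which license and copy DNA ahead of mitosis, were positive in 29 of 31, where 51.2% of the genes tested were. In the higher direction 8 passed unadjusted (4.14% of the genes tested), such as the helicase subunit gene Mcm3 (0.51 ± 0.18) and the ribonucleotide reductase gene Rrm1 (0.38 ± 0.14). The counts rest on single libraries. Leaving out 1 library left 9 to 21 cell division genes, with 11 without day 10 library 2, 11 without day 7 library 1 and 9 without day 7 library 2. For DNA replication they were 1, 2 and 0, and 15 without day 7 library 3. Without day 10 library 1 the counts were 19 and 8.

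**Figure D3:**
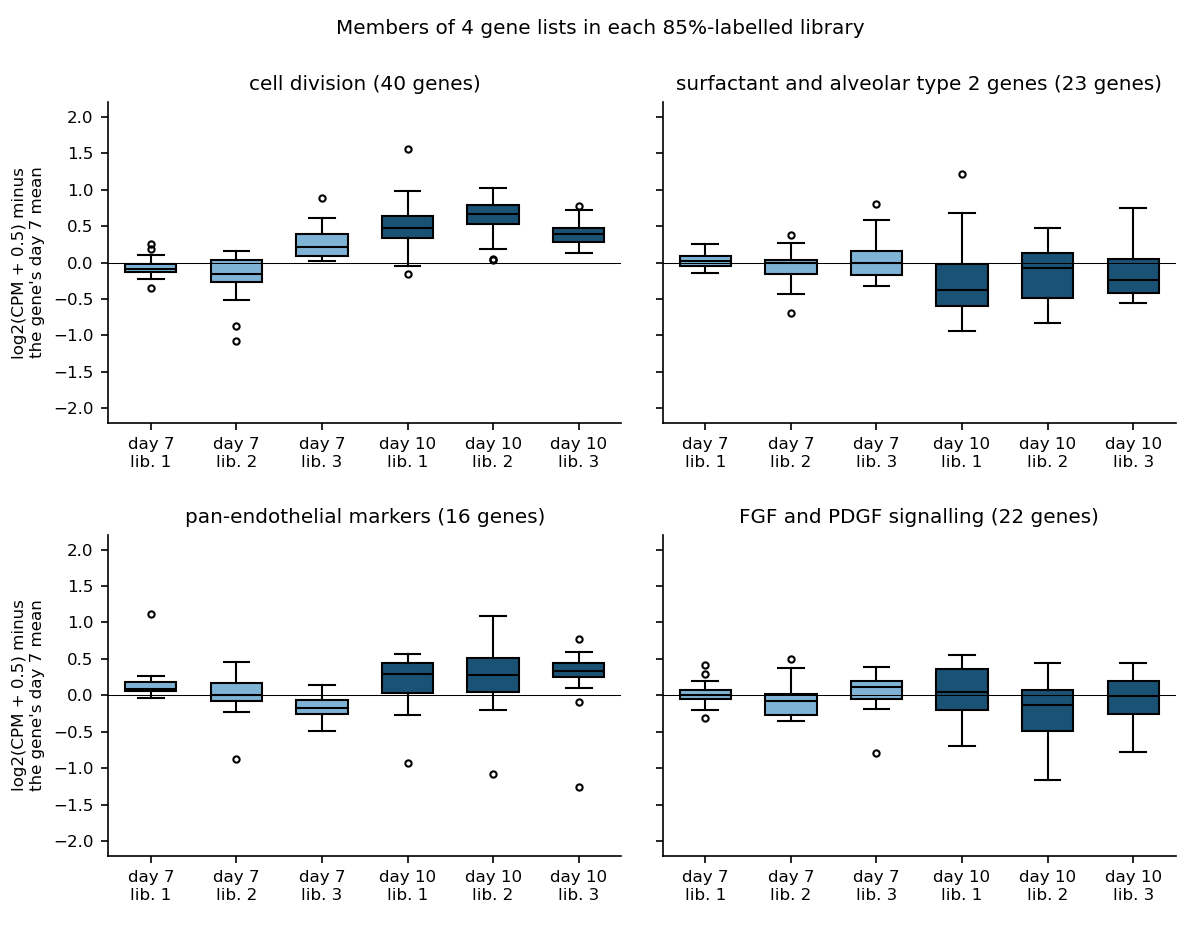
Boxes show, for 4 gene lists, log2(CPM + 0.5) of each member minus its own day 7 mean in each library labelled 85% (line, median; box, quartiles; whiskers, 1.5 times the box; circles, members beyond). Cell division medians are 0.40 to 0.67 on day 10 against -0.16 to 0.21 on day 7, and type 2 cell medians are -0.38 to -0.08 on day 10.

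Promoters of cell division genes are known to carry CCAAT boxes, bound by the factor NF-Y, and the cell-cycle element TTTGAA, bound by the DREAM and MuvB complexes. RefSeq promoters of the rat assembly GRCr8, from 250 bases before to 50 bases after the gene start, were matched to 34 of the 40 listed symbols. CCAAT, on either strand, was in 26 of the 34 (76.5%) and in 37.7% of 27457 promoters. TTTGAA, on either strand, was in 24 of the 34 (70.6%) and in 18.1% of all promoters. Both were in 20 of the 34 (58.8%) and in 7.25% of all promoters. These matches are descriptions of letters and not of bound sites. The 3 members with the smallest p that have a promoter in the table are shown 5′ to 3′ in the direction of the gene, with CCAAT and TTTGAA or their reverse complements in capitals. They lie at chr2:226310807-226311106 on the plus strand for Cenpe, at chr8:93634389-93634688 on the plus strand for Ttk and at chr1:186147408-186147707 on the plus strand for Plk1.
Cenpe: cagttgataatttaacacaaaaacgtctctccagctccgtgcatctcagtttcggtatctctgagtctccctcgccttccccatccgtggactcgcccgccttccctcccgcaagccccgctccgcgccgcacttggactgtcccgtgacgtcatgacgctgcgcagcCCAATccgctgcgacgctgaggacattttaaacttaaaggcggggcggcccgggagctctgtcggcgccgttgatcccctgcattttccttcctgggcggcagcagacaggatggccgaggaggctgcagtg
Ttk: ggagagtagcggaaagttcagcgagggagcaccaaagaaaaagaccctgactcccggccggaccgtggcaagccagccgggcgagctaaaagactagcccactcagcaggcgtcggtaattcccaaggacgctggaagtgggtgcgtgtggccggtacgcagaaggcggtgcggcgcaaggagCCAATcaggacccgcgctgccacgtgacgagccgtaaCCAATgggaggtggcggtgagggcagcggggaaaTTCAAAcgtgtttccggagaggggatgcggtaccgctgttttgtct
Plk1: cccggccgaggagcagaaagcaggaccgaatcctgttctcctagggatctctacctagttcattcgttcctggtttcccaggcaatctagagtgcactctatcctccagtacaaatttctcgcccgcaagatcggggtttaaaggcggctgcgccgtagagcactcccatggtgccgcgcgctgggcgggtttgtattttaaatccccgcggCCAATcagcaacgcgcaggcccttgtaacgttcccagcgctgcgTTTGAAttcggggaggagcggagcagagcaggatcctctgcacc
In Cenpe a single CCAAT begins at -82 from the gene start and no TTTGAA is in the window. In Ttk, CCAAT begins at -67 and -30 and the reverse complement of TTTGAA at 5 bases into the gene. In Plk1, CCAAT begins at -38 and TTTGAA at 7 bases into the gene.

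Genes of surfactant and type 2 epithelial cells leaned lower on day 10. Of 23 tested, 15 had a negative log2 fold change, 10 passed an unadjusted p under 0.05 in the lower direction (3.57% of the genes tested) and 10 had non-overlapping days on the lower side (5.55%). The median was -0.27. No member was called by edgeR, and DESeq2 called Lgi3. Besides Lgi3, Napsa, a protease gene that processes surfactant protein precursors, was at 473, 552 and 365 CPM on day 7 and at 238, 329 and 318 CPM on day 10 (-0.65 ± 0.19, edgeR adjusted p 0.215, n = 3 per day). The surfactant protein gene Sftpb was at 3331, 3590 and 2893 CPM and then at 1890, 2543 and 2274 CPM (-0.55 ± 0.18). The mucin gene Muc1 was at 255 to 280 CPM and then at 161 to 230 CPM (-0.45 ± 0.14). Each was lowest in day 10 library 1, the library with muscle transcripts. Sftpc overlapped, at 7467 to 10370 CPM and then at 4667 to 9319 CPM. The lung lineage factor gene Nkx2-1 was at 253 to 300 CPM and then at 193 to 223 CPM (-0.39 ± 0.15). The type 1 cell list had a median of 0.06, with 1 of 16 passing unadjusted in each direction (4.14% of the genes tested higher, 3.57% lower). Its member Hopx was at 359 to 609 CPM and then at 360 to 471 CPM. Without day 10 library 1, 7 type 2 genes passed and the median was -0.14, and leaving out others gave 5 to 9, the 5 without day 7 library 1. Ciliated cell markers were negative in 17 of 19, with 1 passing unadjusted in the lower direction (3.57% of the genes tested).

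FGF and PDGF genes, which carry signals between mesenchyme and epithelium, were divided in sign. Of 22 tested, 10 were positive and 12 negative, with a median of -0.05. At an unadjusted p under 0.05, 4 passed in the lower direction (3.57% of the genes tested) and 0 in the higher. Beside Fgf10 these were its receptor gene Fgfr2, the receptor gene Fgfr3 and the FGF-induced factor gene Etv5. Fgfr3 was at 323, 335 and 404 CPM on day 7 and at 293, 238 and 274 CPM on day 10 (-0.40 ± 0.13, n = 3 per day). Etv5 was at 141, 136 and 159 CPM and then at 106, 96.3 and 108 CPM (-0.49 ± 0.16). Fgfr2 overlapped, at 137 to 223 CPM and then at 116 to 146 CPM (-0.42 ± 0.16). The step of Fgf10 was -0.78 in the 21%-labelled arm, where it was called lower. Its mean on day 10 was 19 CPM in one arm and 16.9 CPM in the other. The PDGF receptor genes Pdgfra and Pdgfrb, of myofibroblast progenitors and pericytes, overlapped between the days (-0.08 ± 0.22 and -0.16 ± 0.14).

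Of 33 Wnt genes tested, 4 passed unadjusted in the lower direction (3.57% of the genes tested) and 2 in the higher (4.14%), and 16 were positive and 17 negative. The epithelial ligand gene Wnt7b was at 12.9, 12.7 and 15.1 CPM and then at 7.22, 8.22 and 8.85 CPM (-0.74 ± 0.18), and the mesenchymal ligand gene Wnt2 at 24.5 to 42.6 CPM and then at 20.5 to 21.6 CPM (-0.68 ± 0.24). Neither overlapped between the days. The R-spondin genes Rspo2 and Rspo1, which boost Wnt receptors, gave -0.93 ± 0.38 and -0.52 ± 0.23. Without day 7 library 3 the 4 became 2. Of the 2 on the higher side, the secreted Wnt inhibitor gene Wif1 was at 208 to 275 CPM and then at 350 to 420 CPM (0.62 ± 0.19). Of 16 IGF genes tested, 9 were positive and 7 negative, with a median of 0.07. Without day 10 library 1, 4 were positive and 12 negative, with a median of -0.28. With all libraries, 3 passed unadjusted in the lower direction (3.57% of the genes tested) and 1 in the higher (4.14%). The binding protein gene Igfbp2 was at 182, 190 and 123 CPM and then at 76.5, 114 and 101 CPM (-0.76 ± 0.18). Igfbp3 was at 67.9 to 121 CPM and then at 51.9 to 66.7 CPM (-0.66 ± 0.19). The growth factor gene Igf2 was at 22.6 to 61.0 CPM on day 7 and at 41.2 and 28.5 CPM in day 10 libraries 2 and 3, but at 233 CPM in day 10 library 1. Without that library its step was -0.26 in place of 1.26. Of 18 retinoid genes 3 passed in the lower direction (3.57% of the genes tested) and 1 in the higher (4.14%). Cyp26a1, which breaks down retinoic acid, was at 2.34 to 3.39 CPM and then at 0.711 to 1.19 CPM (-1.50 ± 0.45), and the retinol dehydrogenase gene Rdh10 was at 33.8 to 43.6 CPM and then at 25.6 to 30.9 CPM (-0.41 ± 0.13).

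Matrix genes were mixed in sign, while Eln and the collagen processing genes named below gave positive values. Elastin, Eln, was at 7589, 6511 and 5759 CPM on day 7 and at 9397, 9402 and 9385 CPM on day 10 (0.51 ± 0.15, edgeR adjusted p 0.259, n = 3 per day). The days did not overlap, and the 3 day 10 libraries were nearly equal. The same step was 0.48 in the 21%-labelled arm, and the mean of the 85%-labelled arm went on to 15840 CPM on day 14. Of 19 elastic fibre genes 8 were positive and 11 negative, with a median of -0.02. At an unadjusted p under 0.05, 2 passed in the higher direction (4.14% of the genes tested), Eln and the lysyl oxidase-like gene Loxl3 (0.45 ± 0.14). The list had 6 positive members and a median of -0.08 without day 10 library 1. Of 26 collagen and collagen processing genes, 4 passed unadjusted in the higher direction (4.14% of the genes tested) and 0 in the lower (3.57%). The 4 encode processing and folding proteins rather than collagen chains. The lysyl hydroxylase gene Plod1 was at 98.1 to 121 CPM and then at 138 to 160 CPM (0.42 ± 0.10), and the collagen chaperone gene Serpinh1 at 837 to 923 CPM and then at 1049 to 1440 CPM (0.48 ± 0.12). The prolyl hydroxylase subunit gene P4ha2 and the procollagen protease enhancer gene Pcolce gave 0.48 ± 0.16 and 0.42 ± 0.16. Leaving out each library of the step kept that count at 4, but the sign of the list as a whole rested on day 10 library 1, the library with muscle transcripts. With it 20 of the 26 were positive, with a median of 0.16, and without it 12 were, with a median of -0.04 and 1 member passing in the lower direction. Of 15 smooth muscle genes 15 were positive, where 51.2% of the genes tested were. In the higher direction 3 passed (4.14% of the genes tested): the tropomyosin gene Tpm2 (0.74 ± 0.20), smoothelin, Smtn (0.47 ± 0.14), and the leiomodin gene Lmod1 (0.47 ± 0.16). Without day 10 library 1, which holds other muscle, 10 of the 15 were positive and 5 passed. The median step of this list was 0.395 in the 85%-labelled arm and 0.44 in the 21%-labelled arm. In the latter Tpm2 was called higher, at 0.88, while Smtn and Lmod1 gave -0.08 and -0.02.

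Chaperones of the endoplasmic reticulum gave positive values and the ATF4 target Trib3 a negative one. In the list of the unfolded protein and ATF4 responses, 7 of 25 passed unadjusted in the higher direction (4.14% of the genes tested) and 1 in the lower (3.57%). No member was called by edgeR, and DESeq2 called Calr (0.56, adjusted p 0.0239) and Trib3 (-1.17, adjusted p 0.0123). The disulfide isomerase gene Pdia4 was at 157, 143 and 163 CPM on day 7 and at 189, 242 and 202 CPM on day 10 (0.45 ± 0.11, n = 3 per day). Calr, a lectin chaperone of newly made glycoproteins, was at 528, 603 and 543 CPM and then at 656, 1013 and 785 CPM (0.55 ± 0.14). Hsp90b1 was at 415 to 510 CPM and then at 565 to 720 CPM (0.43 ± 0.12), and Hspa5, the chaperone BiP, at 377 to 430 CPM and then at 446 to 676 CPM (0.45 ± 0.19). In each of the 4 genes the days did not overlap and day 10 library 2 was the highest. The count was 3 without day 10 library 2 or without day 7 library 1. The pseudokinase gene Trib3 was at 12.4, 14.3 and 5.41 CPM and then at 4.50, 3.82 and 5.79 CPM (-1.18 ± 0.28), with an overlap through day 7 library 3.

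Among macrophage and monocyte markers 5 of 21 passed unadjusted in the higher direction, where 4.14% of the genes tested did, and 0 in the lower. The chains of the complement starter C1q led them, with C1qc at 22.8 to 26.7 CPM and then at 35.3 to 53.3 CPM (0.89 ± 0.21), C1qa at 21.3 to 26.8 CPM and then at 32.2 to 52.5 CPM (0.87 ± 0.21) and C1qb at 0.74 ± 0.20. The same 3 genes were called higher in the 21%-labelled arm, at 0.94, 1.13 and 1.01. The 3 genes lie side by side on chromosome 5 and are made by the same cells, so they are not independent. Without day 7 library 2 the count was 3. Of 26 interferon-stimulated genes 5 passed in the higher direction (4.14% of the genes tested), led by Mx2 (0.97 ± 0.35), and the count was 1 without day 10 library 3, the highest library of Mx2, and 2 without day 7 library 3. Of 25 complement and coagulation genes 6 passed in the higher direction (4.14% of the genes tested) and 2 in the lower (3.57%). C4a was at 0.485, 1.02 and 0.841 CPM and then at 7.82, 10.1 and 1.48 CPM (3.04 ± 1.04), and F3, the tissue factor that starts clotting, at 114 to 133 CPM and then at 52.7 to 87.3 CPM (-0.83 ± 0.36). Without day 7 library 3 the 6 became 2. Oxygen-response genes had a median of 0.15, with 3 of 18 passing in the higher direction (4.14% of the genes tested): the prostaglandin synthase gene Ptgs2 (1.81 ± 0.48), the metallothionein gene Mt2A (1.17 ± 0.45) and Cdkn1a (0.72 ± 0.30). That count was 1 without day 7 library 1 or without day 7 library 3, and without day 10 library 1 it was 2, with a median of 0.27. The antioxidant gene Nqo1 was at 31.4 to 46.3 CPM and then at 27.9 to 29.4 CPM (-0.44 ± 0.22). The stress cytokine gene Gdf15 was at 3.79 to 6.15 CPM and then at 5.74 to 8.23 CPM, against 188 to 454 CPM in the 21%-labelled lungs on day 10. Among other genes set for description, the neurotrophin receptor gene Ntrk2 (-0.41 ± 0.37), the incretin receptor gene Glp1r (-0.63 ± 0.32) and the imprinted gene Dlk1 (-0.34 ± 0.42) overlapped, while the matrix protein gene Tgfbi did not, at 1074 to 1321 CPM and then at 822 to 1008 CPM (-0.38 ± 0.19).

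The 34 entries of cytosolic ribosomal proteins, 2 of them for Rps4x, were negative in 34 of 34, while 51.2% of the genes tested were positive. Their median was -0.28, and 1 passed unadjusted in the lower direction (3.57% of the genes tested), Rplp2. Negative entries numbered 29, with a median of -0.13, without day 10 library 1. Rplp2 was at 3.51, 70.7 and 92.5 CPM on day 7 and at 2.19, 5.86 and 5.96 CPM on day 10. Without day 7 library 3, 19 ribosomal entries passed.

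The same step in the 21%-labelled arm called 506 genes, 260 higher (1.48%) and 246 lower (1.40%), with a median absolute log2 fold change of 0.334. No gene was called in both arms by edgeR, and 21 were by DESeq2. The arms share no library, and over the 17571 genes Spearman's correlation of the 2 steps was -0.0649, given as a description. The difference between the steps, 85%-labelled minus 21%-labelled, was tested as an interaction in the same fit and was called for 39 genes, 35 in the higher direction (0.199%) and 4 in the lower (0.0228%). Of the 35, 30 were called lower in the 21%-labelled arm, 33 had a positive step in the 85%-labelled arm, and only M6pr was called there. Of the 39, 4 carry no Ensembl ID and are not named. All 4 lower ones, Rab15, Trib3, Apba2 and Aen, were called higher in the 21%-labelled arm.

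**Figure D4:**
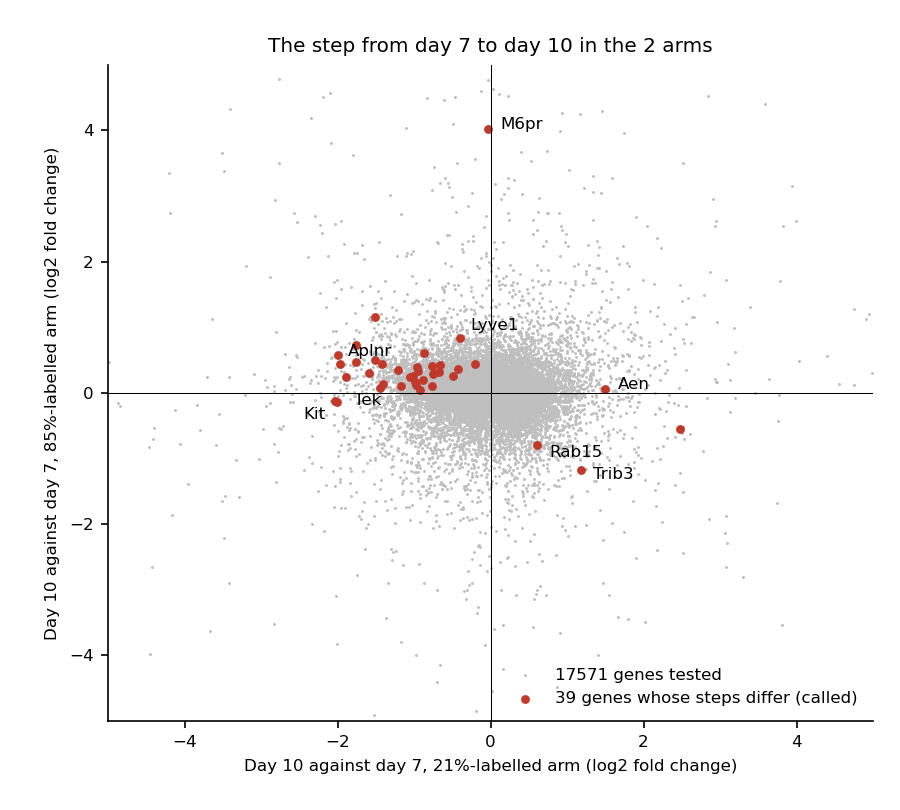
Each point is a gene, with its log2 fold change from day 7 to day 10 in the 21%-labelled arm (x) and in the 85%-labelled arm (y). The 39 genes called for the difference (red) lie mostly to the left at y values near 0, M6pr lies at 4.01 on y, and 37 of the 17571 genes fall outside the axes.

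Many genes of this difference are known from endothelium. Of 16 pan-endothelial markers, 3 were called for the difference in the higher direction (0.199% of the genes tested), as were 2 of 12 general capillary markers. Tek, the angiopoietin receptor TIE2, was at 156, 147 and 162 CPM on day 7 and at 191, 148 and 173 CPM on day 10 in the 85%-labelled lungs. In the 21%-labelled lungs it went from 198, 238 and 241 CPM to 98.6, 82.1 and 75.6 CPM. The steps were 0.14 and -1.40, and the difference was 1.54 ± 0.22 (SE, edgeR adjusted p 0.00363). In the 85%-labelled arm the days overlapped, and the day 10 libraries lay above those of the other arm.

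Aplnr, the apelin receptor of general capillary cells, was at 394, 367 and 343 CPM and then at 482, 405 and 481 CPM in the 85%-labelled arm. In the other arm it went from 413, 431 and 429 CPM to 183, 158 and 82.8 CPM, and the difference was 1.90 ± 0.39 (adjusted p 0.0386). The receptor kinase gene Kit, another marker of that capillary cell in rodents, was at 250 and 226 CPM as means of the days in the 85%-labelled arm and at 285 and 70.8 CPM in the other (difference 1.86 ± 0.39). In Tek, Aplnr and Kit the step of the 21%-labelled arm makes up the greater share of the difference. The call of Tek held without day 10 library 1 of the 85%-labelled arm, while those of Aplnr (1.83, adjusted p 0.12) and Kit (1.7, adjusted p 0.144) were lost.

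The receptor gene Tie1 was at 456, 441 and 414 CPM and then at 599, 531 and 553 CPM in the 85%-labelled arm (0.36 ± 0.12), with a difference of 0.78 ± 0.16 (adjusted p 0.0400; 0.151 without day 10 library 1 of that arm). The endothelial Notch receptor gene Notch4 gave steps of 0.31 and -0.67 (difference 0.98 ± 0.16) and Notch1 steps of 0.12 and -0.97 (difference 1.10 ± 0.23). The C-type lectin gene Clec14a gave 0.25 and -1.02, and the receptor gene Fzd4, for norrin and Wnt ligands, 0.11 and -1.18. Regulators of small GTPases were among the genes with the smallest p: Arap3 (0.30 and -0.73), Fgd5 (0.40 and -0.76) and Dock9 (0.35 and -1.21), together with the fibronectin receptor gene Itga5 (0.42 and -0.66) and the vesicle priming gene Unc13b (0.29 and -0.75). Lyve1 had its larger step in the 85%-labelled arm, at 0.83 against -0.41 (difference 1.24 ± 0.21, adjusted p 0.00908). Its level in the 85%-labelled lungs of 266 ± 11.6 CPM (SD, n = 3) on day 10 lay within 1 SD of the 268 ± 17.3 CPM of the 21%-labelled lungs on day 7.

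Pan-endothelial genes gave mostly positive values in the 85%-labelled arm, and general capillary genes were divided. Of the 16 pan-endothelial markers, 14 were positive and 5 passed unadjusted in the higher direction (4.14% of the genes tested). Of the 12 general capillary markers 6 were positive and 6 negative, with a median of -0.01, and without day 10 library 1, 3 were positive and the median was -0.30. Plvap, the diaphragm protein of fenestrated and general capillary endothelium, was at 809, 715 and 639 CPM and then at 1062, 1400 and 1319 CPM (0.81 ± 0.23, edgeR adjusted p 0.205). Gpihbp1, which anchors lipoprotein lipase to capillaries, was the general capillary marker that passed unadjusted on the lower side, at 13.4, 14.1 and 8.29 CPM and then at 6.99, 3.95 and 7.26 CPM (-0.97 ± 0.37), with no overlap. Endoglin, Eng, was at 433 to 566 CPM and then at 609 to 747 CPM (0.47 ± 0.17), and Sox18 at 108 to 134 CPM and then at 168 to 196 CPM (0.57 ± 0.23). Angpt2, the destabilising TIE2 ligand, was at 13.5 to 16.9 CPM and then at 22 to 31 CPM (0.78 ± 0.29), and the vasoactive peptide gene Adm at 3.55 to 4.79 CPM and then at 8.57 to 9.94 CPM (1.10 ± 0.29), the latter called by DESeq2 (adjusted p 0.0475). In the 21%-labelled arm Eng and Adm rose alike, at 0.49 and 1.17, and edgeR called Adm higher there. Plvap, Sox18 and Angpt2 gave -0.12, -0.08 and 0.09 in that arm, and Gpihbp1 was called lower, at -2.37. The VEGF receptor gene Kdr and the aerocyte marker gene Car4 overlapped between the days (0.23 ± 0.24 and 0.27 ± 0.28). Without day 7 library 3, 1 pan-endothelial marker passed, and without day 10 library 2, 2 did.

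**Figure D5:**
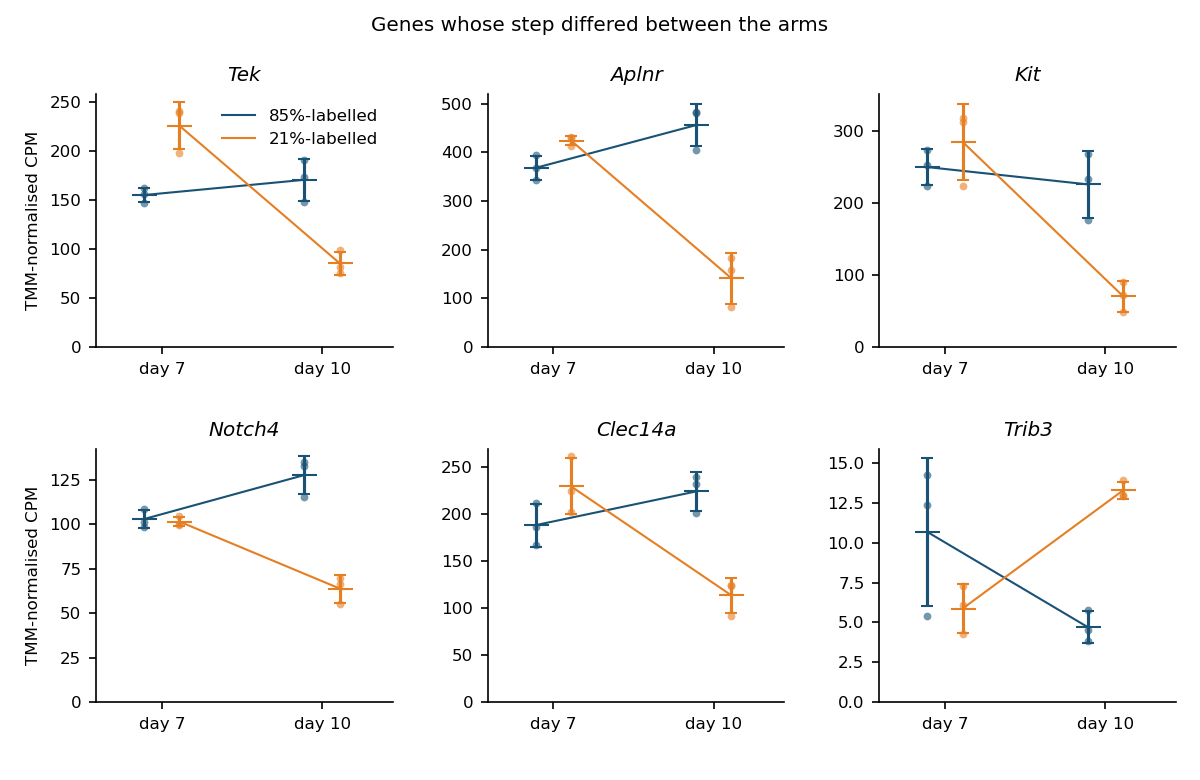
TMM-normalised CPM of 6 genes called for the difference between the arms, with 1 point per library and the mean ± SD of 3 libraries on days 7 and 10. Tek, Aplnr, Kit, Notch4 and Clec14a drop in the 21%-labelled arm and do not in the 85%-labelled arm, where the days overlap for Tek, Kit and Clec14a and the day 10 libraries lie above those of day 7 for Aplnr and Notch4, and Trib3 crosses in the opposite sense.

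Trib3 went from 7.29, 6.07 and 4.25 CPM to 13, 13.9 and 12.9 CPM in the 21%-labelled arm, and its difference was -2.36 ± 0.40 (adjusted p 0.00795). Aen, a p53-induced nuclease gene, had steps of 0.06 and 1.5. Of 23 p53 targets 8 were called higher in the 21%-labelled arm (1.48% of the genes tested) and none in the 85%-labelled arm by edgeR or DESeq2. In the 85%-labelled arm 1 of 23 passed unadjusted in the higher direction (4.14% of the genes tested). For the difference edgeR called 1 and DESeq2 4. Of the 34 ribosomal entries, 28 passed an unadjusted p for the difference in the lower direction, where 7.85% of the genes tested did. The correlation between level and gene length, a property of the library, was 0.364 to 0.379 on day 7 and 0.248 to 0.357 on day 10 in the 21%-labelled arm. With it as a covariate 98 genes were called for the difference by edgeR, 31 of them among the 39. Among the 18 genes flagged for a closer look below, the calls of Kit (1.68, adjusted p 0.0836) and Aplnr (1.81, adjusted p 0.0755) were lost. Without day 10 library 1 of the 85%-labelled arm, 12 of the 39 were called. Of the same 18, Aplnr, Kit, Tie1, Clec14a, Fzd4, Notch1, Aen, Unc13b and M6pr lost their calls, at edgeR adjusted p-values from 0.0627 to 0.151.

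Promoters of the 35 genes with a higher step were matched for 23. CAGGAA and CCGGAA, core letters of sites bound by ETS factors, which drive many endothelial genes, were searched on both strands. CAGGAA was in 9 of the 23 (39.1%) and in 29.0% of all promoters, and CCGGAA in 0 of the 23 and in 15.8% of all promoters. TGATGNAA, the element through which ATF4 acts with C/EBP partners, was in 0 of the 23 and in 3.82% of all promoters. It was in 0 of the 34 cell division promoters. The promoters printed next were set by name as examples and not picked by p. The promoter of Clec14a, at chr6:81619507-81619806 on the minus strand of GRCr8, is shown with CAGGAA in capitals, and that of Trib3, a known ATF4 target, at chr3:161275484-161275783 on the minus strand, with TGATGNAA in capitals, each in the direction of the gene and read as the reverse complement of the motif.
Clec14a: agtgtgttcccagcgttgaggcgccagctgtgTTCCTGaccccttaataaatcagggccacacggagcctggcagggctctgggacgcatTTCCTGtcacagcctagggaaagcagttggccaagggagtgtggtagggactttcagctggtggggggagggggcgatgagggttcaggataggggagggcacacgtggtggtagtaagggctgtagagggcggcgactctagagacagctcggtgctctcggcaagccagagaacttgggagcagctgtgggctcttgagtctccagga
Trib3: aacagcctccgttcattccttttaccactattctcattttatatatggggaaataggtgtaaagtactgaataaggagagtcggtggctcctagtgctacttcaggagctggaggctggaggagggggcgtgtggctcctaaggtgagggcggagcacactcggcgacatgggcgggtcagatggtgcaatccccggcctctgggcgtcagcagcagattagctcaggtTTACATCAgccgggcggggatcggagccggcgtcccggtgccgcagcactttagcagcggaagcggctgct
In Clec14a the reverse complement of CAGGAA begins at -218 and -160 from the gene start, and in Trib3 that of TGATGNAA begins at -21.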

How the data were processed

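mRNA-seq libraries of rat lung were compared between postnatal days. The authors deposited raw counts per gene for 35224 genes and FPKM values, per the file headers. Worked back from the values, FPKM is counts divided by gene length and a library size 0.791 to 1.1 times the library total. The FPKM values served only to check the tissue. The aligner, the counter and whether it used strand were not given in the sources used here. Per the submitters' processing notes the builds were GRCm38 and mm10, which are of mouse, but the gene IDs are of rat. Gene coordinates are therefore printed as deposited, in an unnamed build. Reads of overlapping genes may not be separable. Genes that overlap another entry include Tek, Notch4, Arap3, Unc13b, Pdia4, Hsp90b1, Tpx2, Igf2, Myh8, Ckm, Slco3a1, Angpt2, Rdh10, Pdgfra, Has3 and Rplp2.

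Counts were fitted with edgeR 4.0.16 and limma 3.58.1 in R 4.3.3 for the 30 libraries together, which held 14951463 to 18074590 counts each, with 1 mean for each of 10 groups (20 residual degrees of freedom), TMM scaling and filterByExpr, which left 17571 genes. Adjustment was by Benjamini and Hochberg over every gene tested. Levels are TMM-normalised CPM. The SE, an approximation, is the size of the log2 fold change over the root of its F statistic. In the 85%-labelled arm, same-day libraries of days 7 and 10 differed by well over sampling noise (chi-square per gene 17.7 to 76.9). None of these was thus a second reading of another of its day. The values cannot tell whether they came from separate animals, and other groups were not checked. DESeq2 1.42.0, other scalings, filters, library sets and covariates were alternatives. Leaving out libraries kept the 17571 genes.

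The comparison, the 53 gene lists and the genes named were chosen with earlier results of these data known. Named genes were the largest called changes that had a characterised symbol, no overlap and a mean log2 CPM of 2 or more, filled to 5 a direction by the smallest unadjusted p, up to 4 of each list described by p, 19 set genes such as Mki67 and Eln (H19 was not analysed here, and 1 other is not reported here), 5 muscle and 5 squamous markers highest in day 10 library 1, and 10 genes with the smallest p for the difference. Motif shares were counted in 27457 RefSeq promoters (GRCr8), and 5 motifs were searched.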

Additional observations from a re-analysis of the deposited data

Results flagged for a closer look

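The 18 genes here are part of the 39 whose step from day 7 to day 10 differed between the arms by the interaction test in edgeR (Benjamini-Hochberg adjusted p under 0.05, n = 3 libraries per group). The rules for named genes picked them, partly from the gene lists, and M6pr was added after its values were seen. Each value is the step of the 85%-labelled arm minus that of the 21%-labelled arm on the log2 scale. Groups of 3 libraries are too small for the rule on single samples far from the rest, so none was applied.

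M6pr had the largest value, 4.04 ± 0.78 (SE). Endothelial receptors and surface proteins followed with 1.90 ± 0.39 for Aplnr, 1.86 ± 0.39 for Kit, 1.54 ± 0.22 for Tek, 1.29 ± 0.24 for Fzd4, 1.27 ± 0.24 for Clec14a, 1.24 ± 0.21 for Lyve1, 1.10 ± 0.23 for Notch1, 0.98 ± 0.16 for Notch4 and 0.78 ± 0.16 for Tie1. Genes of small GTPase control, adhesion and vesicles gave 1.56 ± 0.25 for Dock9, 1.17 ± 0.18 for Fgd5, 1.08 ± 0.17 for Itga5, 1.05 ± 0.18 for Unc13b and 1.03 ± 0.16 for Arap3. The lower ones of the 18 were Trib3 at -2.36 ± 0.40, Aen at -1.44 ± 0.31 and Rab15 at -1.41 ± 0.21. Called genes outside the 18 include Apba2 (-3.02), Nlrc3 (2.65), Has3 (2.49), Scn7a (2.22) and Rnf125 (2.13).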

How the results depend on the processing

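The count of genes called for the step in the 85%-labelled arm was 2. It stayed at 2 with relative log expression scaling, with no low-count filter and with a filter of 1 CPM in 3 libraries, and was 3 with Y-linked transcripts as a covariate, which like the gene length correlation was chosen after seeing the data. It was 95 with DESeq2, 66 and 28 with the gene length correlation and the mitochondrial share as covariates, and 14 without the 4 libraries above 6% mitochondrial counts; in each of these both genes were among the calls. It was 1 with the 6 libraries fitted alone, 1 with the 15 libraries of the arm fitted alone, where neither M6pr nor Txnrd3 was the gene called, 1 with the 6 libraries fitted with a replicate block, where the gene called was Krt13 (9.29, adjusted p 0.0139), high in day 10 library 1, and M6pr (adjusted p 0.0805) and Txnrd3 (adjusted p 0.812) were not, and 1 at a log2 fold change of at least 1. Leaving out 1 library gave 0 to 10, with 0 without day 7 library 1 or 2, 5 without day 7 library 3, 1 without day 10 library 1 and 10 without day 10 library 2 or 3.

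The count for the difference between the arms was 39. It was 41 with relative log expression scaling, 35 with no filter, 47 with the CPM filter, 39 with the Y-linked covariate and 33 at a log2 fold change of at least 1. It was 315 with DESeq2, 255 and 98 with the mitochondrial share and the gene length correlation as covariates, 177 without the libraries above 6% mitochondrial counts, 3 with the 12 libraries fitted alone, 2 of them among the 39, and 1 with the 12 libraries fitted with a replicate block, which was none of the 39. Leaving out 1 library gave 11 to 262, the 11 without library 2 or 3 of the 21%-labelled day 7 and the 262 without library 3 of the 85%-labelled day 7. The cause of these shifts was not tested. Day 7 and day 10 libraries of the 85%-labelled arm with the same replicate number had deviations correlated at -0.131, 0.473 and -0.227. Pairs with different numbers in that arm gave -0.517 to 0.547. In the 21%-labelled arm the same numbers gave 0.0699, 0.0367 and 0.0721, and different numbers -0.0689 to -0.00871. Whether the replicate numbers pair the samples was not tested. No named gene that was called changed its sign under the alternatives run. Of the calls of single named genes for the difference, 311 repeats kept their side of the threshold and 103 lost it.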
